A study of Homo sapiens with 8 samples.

Results

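The genes described here are TAF3 and 9 other TAF subunits of the general transcription factor TFIID: TAF10, TAF8, TAF5, TAF13, TAF11, TAF4, TAF12, TAF6 and TAF9. They were found by symbol in the platform's gene table, and 9 of the 10 genes had a probe. The exception was TAF9, so no value is given for it; the 2 probes of AK6, a gene that overlaps the TAF9 locus, were not taken for it. The genes had 13 probes out of the 48803 on the array, where 18852 genes are named in all. The cells were HCT116, an established line from a human colon carcinoma, and their RNA was hybridized to 8 BeadChip arrays (Illumina HumanHT-12 v3). The 4 groups of 2 arrays were TAF3 siRNA with doxorubicin, TAF3 siRNA untreated, control siRNA with doxorubicin, and control siRNA untreated. The control siRNA was a non-targeting one, so every array came from transfected cells. Doxorubicin, a topoisomerase poison that breaks DNA, was given at 0.5 µM for 24 h from 48 h after transfection. No label says that the arrays of a group came from separate cultures, so the p-values rest on a spread between arrays that may be technical. Loss of TAF3 and any other effect of the siRNA cannot be told apart. The labels number the untreated arrays replicate 1 and 3 and the doxorubicin arrays replicate 2 and 4. No replicate number occurs in both treatments, so an effect of replicate and one of doxorubicin cannot be told apart either.

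TFIID is made of the TATA-binding protein and a set of TAFs, and its binding to a core promoter starts the assembly of the RNA polymerase II preinitiation complex. Many TAFs carry a histone fold and pair with a set partner: TAF3 and TAF8 each with TAF10, TAF6 with TAF9, TAF4 with TAF12, and TAF11 with TAF13. TAF5, which has WD40 repeats, holds the core of the complex together with the TAF6–TAF9 and TAF4–TAF12 pairs. TAF3 ends in a PHD finger that binds histone H3 trimethylated on lysine 4, a mark of active promoters, and the series title names that contact and selective gene activation as the study's subject.

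A probe's signal is its deposited intensity, on a scale where every array has a median of 73.9. A probe was above background on an array where its signal passed that array's threshold, 81.3 to 87.3, which the deposited detection p-values set at 0.05. By this mark 17428 to 19533 probes per array were above background. Differences are given in log2 units of background-corrected, quantile-normalized signal, with the standard error from a limma fit to all 8 arrays and Benjamini-Hochberg adjusted p-values over the 20628 probes detected on at least 2 arrays. A probe is called changed where the adjusted p is under 0.05. All 8 epithelial markers examined, EPCAM and CDH1 among them, lay above background on all 8 arrays. So did 1 of 6 fibroblast markers (COL1A1), 1 of 4 endothelial markers (PECAM1) and 0 of 4 leukocyte markers with a probe. Below background on all 8 arrays were 4 fibroblast markers (COL1A2, COL3A1, DCN and LUM), 2 endothelial (CDH5 and KDR) and 2 leukocyte ones (PTPRC and CD3E). What the COL1A1 and PECAM1 signals come from in this cell line was not tested. CDKN1A, a p53 target, rose with doxorubicin on its probe ILMN_1784602 by 2.23 ± 0.20 with TAF3 siRNA (limma adjusted p = 0.00402) and by 2.28 ± 0.20 with control siRNA (limma adjusted p = 0.00125). Its probe ILMN_1787212 rose by 0.89 ± 0.18 with TAF3 siRNA (limma adjusted p = 0.0267) and by 0.72 ± 0.18 with control siRNA (limma adjusted p = 0.0256). As these are bulk RNA samples, fewer cells that make a transcript and less of it per cell cannot be told apart.

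Of the 13 probes, 8 lay above background on all 8 arrays: the probes of TAF10, TAF5, TAF4 and TAF12 and both probes of TAF13 and of TAF6. The TAF11 probe was above background on 7 arrays, the TAF8 probes on 6 and 4, and the TAF3 probes on 2 and 0. The TAF3 probe above background on 0 arrays was the only member probe left out of the test, and 12 probes of 9 genes were tested.

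**Figure D1:**
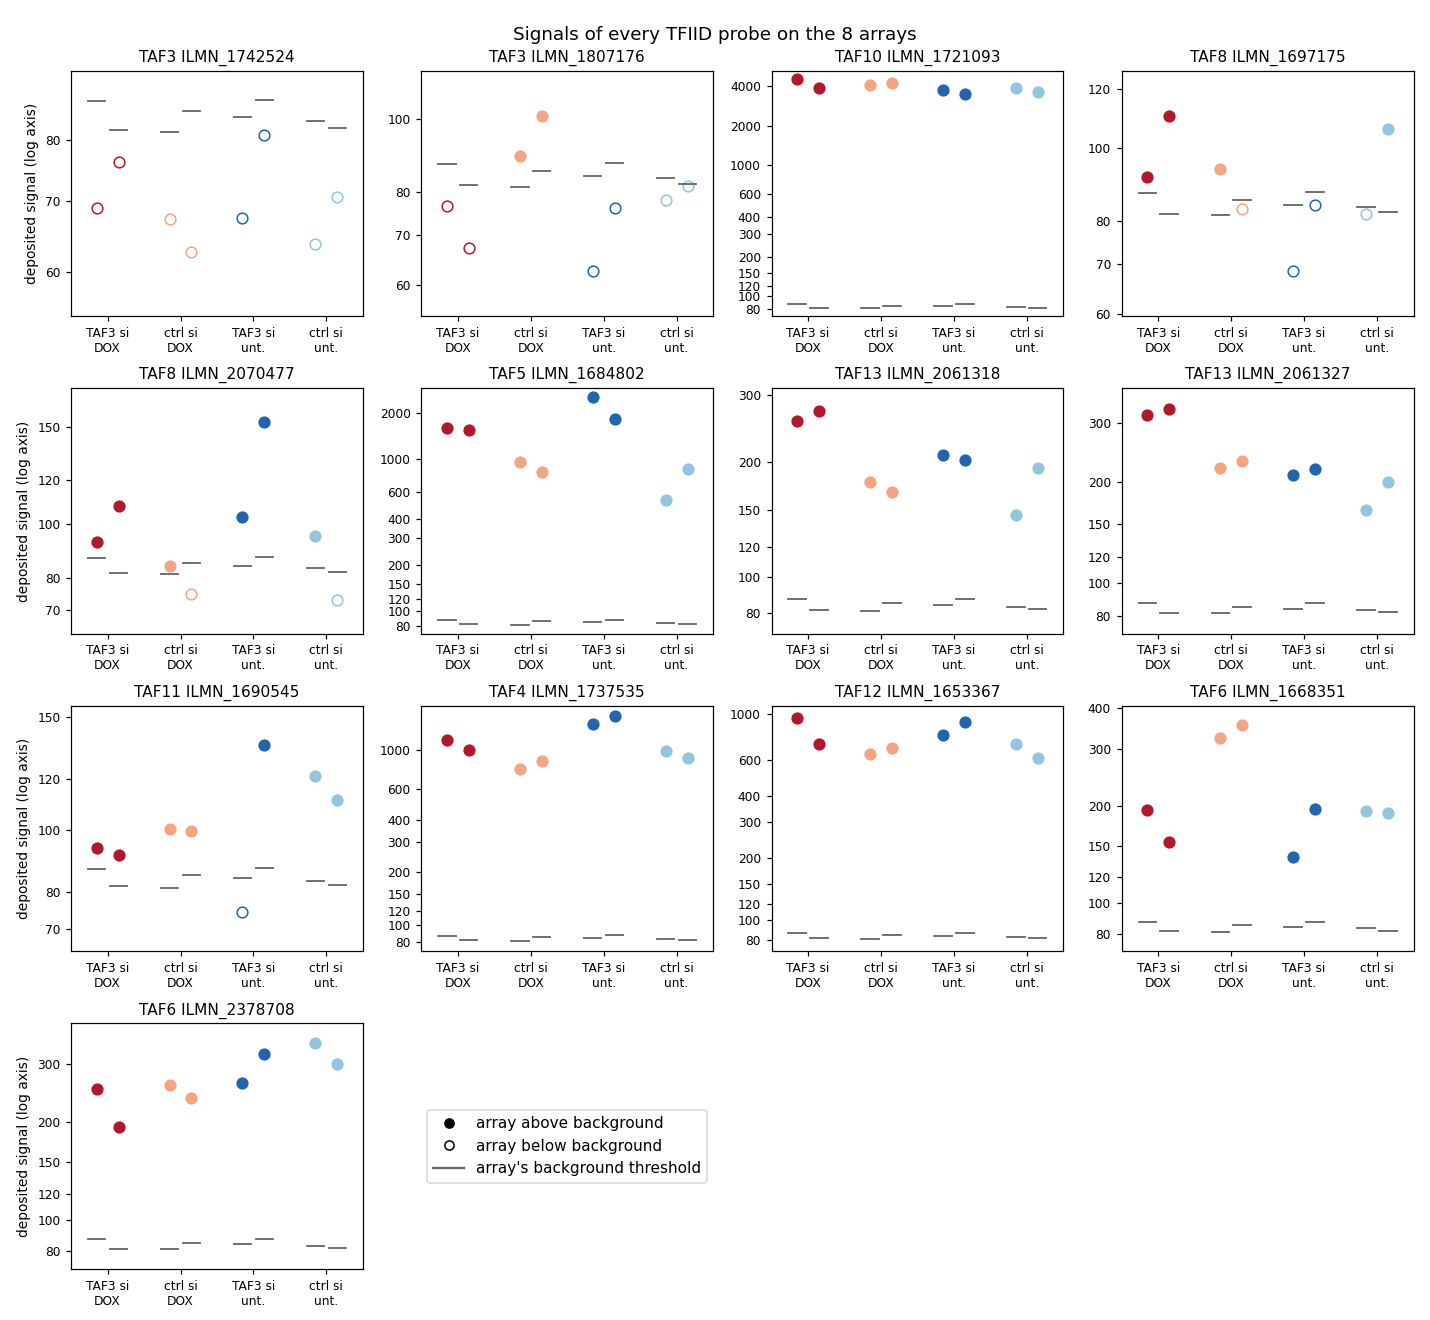
Deposited signal (log axis) of every TFIID probe on each of the 8 arrays, by group, with TAF3 siRNA left of control siRNA. Filled points lie above the array's background threshold (short lines) and open points below it. TAF5 signals are 1536 to 2525 on the TAF3 siRNA arrays and 532 to 949 on the control siRNA arrays, while both TAF3 probes sit near the thresholds.

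TAF3 itself, the gene targeted by the siRNA, gave signals close to background with either siRNA. Its probe ILMN_1807176 had signals of 76.6 and 67.3 with TAF3 siRNA and doxorubicin, 62.7 and 76.0 with TAF3 siRNA untreated, 89.3 and 101.0 with control siRNA and doxorubicin, and 78.1 and 81.4 with control siRNA untreated. Only the control siRNA doxorubicin arrays lay above background, so the probe entered the test through that group alone. All 4 TAF3 siRNA arrays lay below all 4 control siRNA arrays. Under doxorubicin the difference between TAF3 siRNA and control siRNA was -0.37 ± 0.16 (95% interval -0.73 to 0.00), and it was not called (limma adjusted p = 0.170). Since the TAF3 siRNA arrays were below background, the measured mean of the control siRNA arrays is given as at least 1.10-fold brighter. For this bound each TAF3 siRNA array counts at its background threshold, or at the probe's value where that was higher. The bound leaves out the spread between arrays. In untreated cells both groups were below background and the fitted difference was -0.21 ± 0.16 (limma adjusted p = 0.654).

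The other TAF3 probe, ILMN_1742524, was below background on all 8 arrays. Its signals were 69.1 and 76.2 with TAF3 siRNA and doxorubicin, 67.5 and 80.8 with TAF3 siRNA untreated, 67.3 and 62.7 with control siRNA and doxorubicin, and 63.8 and 70.7 with control siRNA untreated. Here the TAF3 siRNA arrays were not the lower ones, and the 2 probes of TAF3 were negatively correlated over the 8 arrays (r = -0.44), a description of values near background. A knockdown of TAF3 was thus not shown on these arrays: the difference on ILMN_1807176 was not called, and that probe was tested only because its control siRNA doxorubicin arrays were above background. On ILMN_1807176 the measured mean of the control siRNA doxorubicin arrays was at least 1.11-fold that of the untreated ones. This bound leaves out the spread between arrays. The difference, 0.21 ± 0.16, was not called (95% interval -0.16 to 0.58, limma adjusted p = 0.430).

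Promoter windows of the members whose levels differ most between the groups are shown for reference. They come from RefSeq (GRCh38.p14) and hold the 250 bases before an annotated transcription start, 5′ to 3′ on the gene's strand. Capitals mark matches of the motif TATAAA of the TATA box, the motif CCAAT bound by NF-Y, the motif GGGCGG of Sp1 sites and the motif CCGGAA of ETS factors. Each was searched on both strands, so a run of capitals may be a reverse complement, and overlapping matches were counted. TAF6 is shown with windows of a pair of its starts, and a further window nearly the same as the downstream one is left out. Which start each TAF6 probe reports was not examined.
TAF5, chr10:103367726-103367975, plus strand: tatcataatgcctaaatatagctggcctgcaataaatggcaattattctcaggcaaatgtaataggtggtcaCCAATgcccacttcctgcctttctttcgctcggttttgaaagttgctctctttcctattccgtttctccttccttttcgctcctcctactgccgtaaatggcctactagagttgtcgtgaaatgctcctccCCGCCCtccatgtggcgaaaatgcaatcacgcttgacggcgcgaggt
TAF13, chr1:109076004-109076253, minus strand: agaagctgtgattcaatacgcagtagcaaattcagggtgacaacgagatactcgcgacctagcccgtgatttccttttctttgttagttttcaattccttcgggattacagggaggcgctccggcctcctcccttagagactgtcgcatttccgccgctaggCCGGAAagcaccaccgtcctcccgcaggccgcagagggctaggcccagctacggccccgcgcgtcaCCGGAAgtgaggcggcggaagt
TAF4, chr20:62065882-62066131, minus strand: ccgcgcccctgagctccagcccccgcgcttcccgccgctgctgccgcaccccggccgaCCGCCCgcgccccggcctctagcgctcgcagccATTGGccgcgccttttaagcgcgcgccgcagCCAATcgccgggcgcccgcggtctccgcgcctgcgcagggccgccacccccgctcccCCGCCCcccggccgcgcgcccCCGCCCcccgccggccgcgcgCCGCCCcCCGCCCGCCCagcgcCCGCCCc
TAF6, downstream start, chr7:100119358-100119607, minus strand: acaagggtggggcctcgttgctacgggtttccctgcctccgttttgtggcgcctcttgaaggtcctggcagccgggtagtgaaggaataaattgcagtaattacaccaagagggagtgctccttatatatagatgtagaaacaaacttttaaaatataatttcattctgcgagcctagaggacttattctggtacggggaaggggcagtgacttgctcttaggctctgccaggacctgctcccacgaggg
TAF6, upstream start, chr7:100119859-100120108, minus strand: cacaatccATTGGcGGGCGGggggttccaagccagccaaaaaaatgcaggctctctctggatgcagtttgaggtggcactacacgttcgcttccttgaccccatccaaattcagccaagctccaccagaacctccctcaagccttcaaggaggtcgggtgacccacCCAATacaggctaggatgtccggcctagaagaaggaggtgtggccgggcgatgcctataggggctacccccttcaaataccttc
The TAF5 window holds 1 CCAAT and 1 GGGCGG match, the TAF13 window 2 CCGGAA matches, and the TAF4 window 2 CCAAT and 7 GGGCGG matches. The upstream TAF6 window holds 2 CCAAT and 1 GGGCGG matches and the downstream one none of the 4 motifs. RefSeq's table held 13 windows for 9 of the 10 genes, all but TAF8. TATAAA was in 0 of these 13 windows and in 10.7% of the 35116 windows of all genes. CCAAT was in 5 windows of 4 genes (32% of all windows), GGGCGG in 7 of 6 genes (42.6%) and CCGGAA in 5 of 5 genes (14.5%). Some windows of the same gene overlap, so a site can count in more than 1 window. A match describes letters in a window and no more.

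TAF5, the scaffold subunit, varied most between the 4 groups among the tested member probes (moderated F = 15.5). Its probe ILMN_1684802 had signals of 1586 and 1536 with TAF3 siRNA and doxorubicin, 2525 and 1813 with TAF3 siRNA untreated, 949 and 812 with control siRNA and doxorubicin, and 532 and 851 with control siRNA untreated. All 4 TAF3 siRNA arrays lay above all 4 control siRNA arrays. The group means were 1561 ± 35.1 and 2169 ± 503 for TAF3 siRNA with and without doxorubicin, against 881 ± 96.9 and 692 ± 226 for control siRNA with and without doxorubicin (SD, n = 2 each). Under doxorubicin TAF5 was higher with TAF3 siRNA by 0.94 ± 0.26 (95% interval 0.35 to 1.53, limma adjusted p = 0.0451).

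In untreated cells the TAF5 difference was 1.51 ± 0.26 (95% interval 0.92 to 2.10), a ratio of mean signals of 3.14. By unadjusted p (0.000237) it ranked 23 among 20628 probes, but it was not called (limma adjusted p = 0.213). No tested probe was called by limma in that comparison, where 2470 had an unadjusted p under 0.05. Leaving out replicate 3 of the untreated TAF3 siRNA arrays, the dimmer of the pair for TAF5, gave 1.86 with a limma adjusted p of 0.0174. The other 7 fits that left out 1 array did not call it, with differences of 1.16 to 1.80 and limma adjusted p of 0.0941 to 0.817. Doxorubicin did not change TAF5 at the threshold with either siRNA: the difference was -0.29 ± 0.26 with TAF3 siRNA (limma adjusted p = 0.575) and 0.28 ± 0.26 with control siRNA (limma adjusted p = 0.527). The doxorubicin effect with TAF3 siRNA minus that with control siRNA was -0.57 ± 0.37 (95% interval -1.40 to 0.26, limma adjusted p = 0.532).

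The TAF5 call under doxorubicin was close to the threshold. It was lost when any 1 of the 4 doxorubicin arrays was left out, where the difference was 0.82 to 1.06 and the limma adjusted p 0.0917 to 0.22. It was also lost on log2 of the deposited signal (0.83, limma adjusted p = 0.0687), with median centring (0.83, limma adjusted p = 0.0687) and without the filter on dim probes (0.94, limma adjusted p = 0.0681). The difference stayed above 0 in all 17 alternatives.

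TAF4 and TAF12, histone-fold partners in the core of TFIID, both had higher means with TAF3 siRNA in each treatment. TAF4 (ILMN_1737535) had signals of 1139 and 1005 with TAF3 siRNA and doxorubicin, 1412 and 1562 with TAF3 siRNA untreated, 780 and 869 with control siRNA and doxorubicin, and 990.4 and 901 with control siRNA untreated. The 4 TAF3 siRNA arrays lay above the 4 control siRNA arrays. TAF4 differed between the siRNAs by 0.47 ± 0.15 under doxorubicin (limma adjusted p = 0.0743) and by 0.50 ± 0.15 in untreated cells (limma adjusted p = 0.312), and neither was called. Within each siRNA the doxorubicin arrays were the lower ones for TAF4, by -0.33 ± 0.15 with TAF3 siRNA (limma adjusted p = 0.262) and -0.30 ± 0.15 with control siRNA (limma adjusted p = 0.216).

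TAF12 (ILMN_1653367) had signals of 957 and 715 with TAF3 siRNA and doxorubicin, 796 and 921 with TAF3 siRNA untreated, 643 and 686 with control siRNA and doxorubicin, and 721 and 615 with control siRNA untreated. The siRNA groups did not overlap within a treatment, but the lowest TAF3 siRNA array lay below the highest control siRNA array. The difference was 0.42 ± 0.17 under doxorubicin (limma adjusted p = 0.141) and 0.22 ± 0.17 in untreated cells (limma adjusted p = 0.651). Doxorubicin arrays differed from untreated ones by 0.07 ± 0.17 with TAF3 siRNA and by -0.12 ± 0.17 with control siRNA, and neither was called. Over the 8 arrays, which share the 4 groups, TAF4 and TAF12 had r = 0.79.

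TAF6, the partner of TAF9, had probes that went different ways with doxorubicin in control siRNA cells. ILMN_1668351 had signals of 194 and 154 with TAF3 siRNA and doxorubicin, 139 and 195 with TAF3 siRNA untreated, 323 and 354 with control siRNA and doxorubicin, and 192 and 189.5 with control siRNA untreated. The control siRNA doxorubicin arrays stood above the other 6 arrays, which shared 1 range. On this probe TAF6 was lower with TAF3 siRNA under doxorubicin by -0.86 ± 0.17 (95% interval -1.24 to -0.48, limma adjusted p = 0.0149), and it rose with doxorubicin in control siRNA cells by 0.71 ± 0.17 (95% interval 0.33 to 1.09, limma adjusted p = 0.0216). With TAF3 siRNA the doxorubicin difference was 0.13 ± 0.17 (limma adjusted p = 0.725). The difference between these responses was -0.58 ± 0.24 (95% interval -1.12 to -0.05), with an unadjusted p of 0.0356 and a limma adjusted p of 0.310, so the responses were not shown to differ. In untreated cells the siRNA difference was -0.28 ± 0.17 (limma adjusted p = 0.544).

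The other TAF6 probe, ILMN_2378708, had signals of 252 and 192 with TAF3 siRNA and doxorubicin, 262 and 323 with TAF3 siRNA untreated, 259 and 237 with control siRNA and doxorubicin, and 347 and 301 with control siRNA untreated. On it the control siRNA doxorubicin arrays were below the untreated ones, by -0.50 ± 0.17 (95% interval -0.88 to -0.13, limma adjusted p = 0.0706), which was not called. With TAF3 siRNA doxorubicin arrays differed from untreated ones by -0.33 ± 0.17 (limma adjusted p = 0.299). The siRNA difference under doxorubicin was -0.07 ± 0.17 (95% interval -0.45 to 0.30, limma adjusted p = 0.816). In untreated cells it was -0.24 ± 0.17 (limma adjusted p = 0.598), below 0 as on ILMN_1668351 and likewise not called. Over the 8 arrays the probes had r = -0.23, and the gene table assigns them to different RefSeq transcripts. A TAF6 value therefore holds for its probe and not for the gene as a whole.

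The TAF6 calls of ILMN_1668351 rest on small groups. The call under doxorubicin was lost without replicate 4 of the TAF3 siRNA doxorubicin arrays (-0.75, limma adjusted p = 0.105) and without control siRNA doxorubicin replicate 2 (-0.92, limma adjusted p = 0.125) or 4 (-0.80, limma adjusted p = 0.103). The doxorubicin call in control siRNA cells was lost when any 1 of its 4 arrays was left out (0.65 to 0.77, limma adjusted p = 0.0863 to 0.129). They held in the 8 and 7 alternatives that changed the processing or the fit and tested this probe. With one probe per gene, the brightest, it was not tested.

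**Figure D2:**
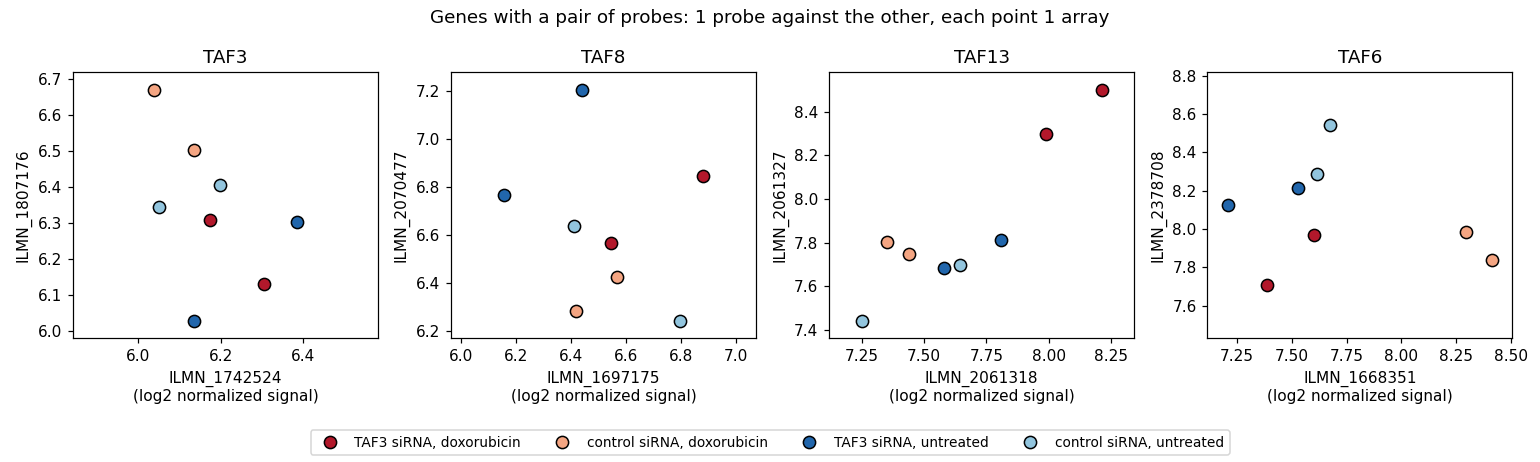
For TAF3, TAF8, TAF13 and TAF6, the normalized log2 signal of 1 probe is plotted against that of the other, each point 1 array, coloured by group. The TAF13 points run along a rising line (r = 0.90), whereas those of TAF6 (r = -0.23), TAF8 (r = -0.20) and TAF3 (r = -0.44) do not.

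TAF13 and TAF11 form a histone-fold pair that also contacts the TATA-binding protein. TAF13 probe ILMN_2061318 had signals of 256 and 273 with TAF3 siRNA and doxorubicin, 209.7 and 203 with TAF3 siRNA untreated, 177 and 167 with control siRNA and doxorubicin, and 145 and 193 with control siRNA untreated. Its other probe, ILMN_2061327, had signals of 317 and 332 with TAF3 siRNA and doxorubicin, 210.2 and 219 with TAF3 siRNA untreated, 221 and 231 with control siRNA and doxorubicin, and 165 and 201 with control siRNA untreated. On both probes the TAF3 siRNA doxorubicin arrays stood above the other 6. Under doxorubicin TAF13 was higher with TAF3 siRNA by 0.70 ± 0.18 (95% interval 0.29 to 1.12, limma adjusted p = 0.0375) and 0.62 ± 0.16 (95% interval 0.26 to 0.99, limma adjusted p = 0.0368) on these probes. In untreated cells the differences were 0.25 ± 0.18 (limma adjusted p = 0.632) and 0.18 ± 0.16 (limma adjusted p = 0.705), and neither was called.

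With TAF3 siRNA the doxorubicin arrays were higher than the untreated ones on TAF13 by 0.41 ± 0.18 (limma adjusted p = 0.249) and 0.65 ± 0.16 (95% interval 0.29 to 1.01, limma adjusted p = 0.0541). With control siRNA the doxorubicin differences were -0.05 ± 0.18 (limma adjusted p = 0.889) and 0.20 ± 0.16 (limma adjusted p = 0.440). The difference between these responses was 0.46 ± 0.26 and 0.45 ± 0.23, not called on either probe (limma adjusted p = 0.467 and 0.416). The TAF13 calls under doxorubicin were lost on both probes without TAF3 siRNA doxorubicin replicate 4 (0.59 and 0.52), without control siRNA doxorubicin replicate 2 (0.75 and 0.60) or 4 (0.66 and 0.65). They were also lost on log2 of the deposited signal (0.62, limma adjusted p = 0.0588, and 0.52, limma adjusted p = 0.0710) and with median centring (0.61 and 0.52), and on ILMN_2061327 with an intensity trend (0.62, limma adjusted p = 0.0529).

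TAF11 (ILMN_1690545) had signals of 93.6 and 91.3 with TAF3 siRNA and doxorubicin, 74.4 and 136 with TAF3 siRNA untreated, 100.4 and 99.7 with control siRNA and doxorubicin, and 121 and 111 with control siRNA untreated. The untreated TAF3 siRNA arrays spanned the signals of all the others, and 1 of them was below background. No TAF11 difference was called: it was -0.07 ± 0.23 between the siRNAs under doxorubicin (95% interval -0.59 to 0.44, limma adjusted p = 0.871) and -0.27 ± 0.23 in untreated cells (95% interval -0.78 to 0.25, limma adjusted p = 0.685). Over the 8 arrays TAF11 had r = -0.50 with each TAF13 probe. Since TAF11 was near background on every array, this r cannot be set against the 0.79 of TAF4 and TAF12. Between doxorubicin and untreated arrays TAF11 differed by -0.08 ± 0.23 with TAF3 siRNA and by -0.27 ± 0.23 with control siRNA, and neither was called.

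TAF10, the histone-fold partner of TAF3 and of TAF8 and a subunit of the SAGA coactivator as well, had no called difference between the groups. Its probe ILMN_1721093 had signals of 4579 and 3913 with TAF3 siRNA and doxorubicin, 3767 and 3511 with TAF3 siRNA untreated, 4096 and 4265 with control siRNA and doxorubicin, and 3903 and 3646 with control siRNA untreated. The siRNA groups overlapped in each treatment on the deposited scale, though under doxorubicin not on the normalized one. The difference between the siRNAs was 0.13 ± 0.17 under doxorubicin (95% interval -0.26 to 0.52, limma adjusted p = 0.675) and -0.15 ± 0.17 in untreated cells (95% interval -0.55 to 0.24, limma adjusted p = 0.772). Doxorubicin arrays were higher than untreated ones by 0.41 ± 0.17 with TAF3 siRNA (95% interval 0.02 to 0.80, limma adjusted p = 0.219). With control siRNA they were higher by 0.13 ± 0.17 (95% interval -0.27 to 0.52, limma adjusted p = 0.685).

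TAF8, which with TAF10 and TAF2 forms a module that joins TFIID during its assembly, was near background. Probe ILMN_2070477 had signals of 92.8 and 108 with TAF3 siRNA and doxorubicin, 103 and 153 with TAF3 siRNA untreated, 84.0 and 74.9 with control siRNA and doxorubicin, and 95.1 and 72.9 with control siRNA untreated. All 4 TAF3 siRNA arrays were above background, against 2 of the 4 control siRNA arrays. Its siRNA difference was 0.35 ± 0.21 under doxorubicin (limma adjusted p = 0.301) and 0.55 ± 0.21 in untreated cells (95% interval 0.08 to 1.01, limma adjusted p = 0.374), and neither was called. Probe ILMN_1697175 had signals of 91.6 and 110.4 with TAF3 siRNA and doxorubicin, 68.5 and 84.0 with TAF3 siRNA untreated, 93.8 and 83.0 with control siRNA and doxorubicin, and 81.6 and 106 with control siRNA untreated. On it the untreated TAF3 siRNA arrays were both below background, and the siRNA difference was 0.22 ± 0.20 under doxorubicin (limma adjusted p = 0.503) and -0.31 ± 0.20 in untreated cells (limma adjusted p = 0.572). With TAF3 siRNA the measured mean of the doxorubicin arrays on this probe was at least 1.18-fold that of the untreated ones. Again the bound leaves out the spread between arrays. The difference, 0.42 ± 0.20, was not called (95% interval -0.03 to 0.86, limma adjusted p = 0.271). ILMN_2070477 differed by -0.28 ± 0.21 (limma adjusted p = 0.495). The probes had r = -0.20 over the 8 arrays, so TAF8 has no settled direction.

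Counted over all members, calls between the siRNAs were of TAF5, TAF13 and TAF6, all under doxorubicin. There 4 of 12 member probes were called between the siRNAs, against 13.2% of all 20628 probes. Higher with TAF3 siRNA were 3 (TAF5 and both TAF13 probes; 6.28% of all probes), and lower was 1 (TAF6 ILMN_1668351; 6.92% of all probes). The normalized values of the groups did not overlap for 10 of 12 member probes, against 61.7% of all probes. TAF3 ILMN_1807176, which passed the filter only through its brighter group, is among those 10. The median member difference was 0.29, against 0.03 over all probes. On log2 of the deposited signal 1 of 12 was called, TAF6, and with 1 array left out in turn the count ran from 0 to 4, at 0 without TAF3 siRNA doxorubicin replicate 4 or either control siRNA doxorubicin array.

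In untreated cells 0 of 12 member probes were called between the siRNAs by limma, as for all probes (0%), of which 12% had an unadjusted p under 0.05. By that looser mark 3 member probes passed, TAF5, TAF4 and TAF8 ILMN_2070477, each higher with TAF3 siRNA. Groups did not overlap for 7 of 12 member probes, against 40.9% of all probes, 4 higher (21.8% of all probes) and 3 lower (19.1%). The 3 lower ones include TAF3 ILMN_1807176, which was below background on all arrays of this comparison. The median difference was 0.01 for the members and 0.01 for all probes.

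**Figure D3:**
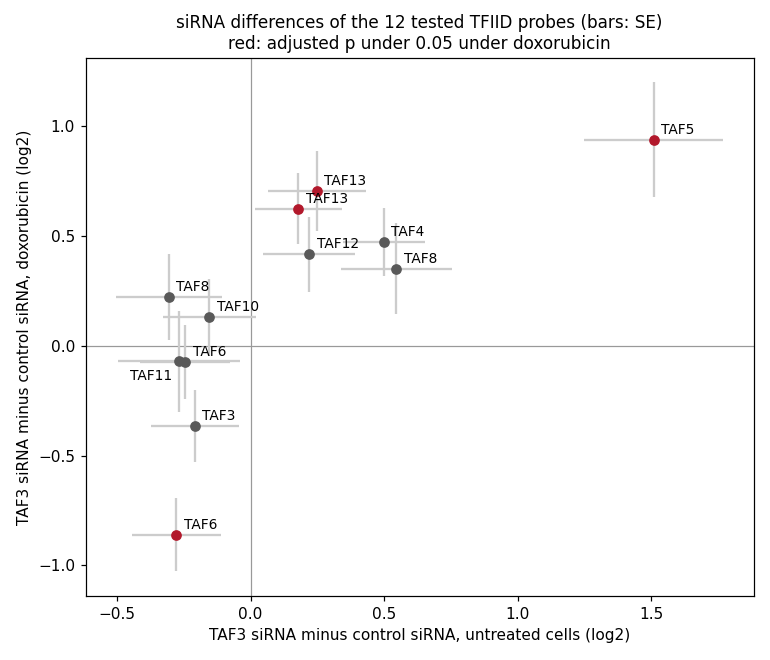
Difference between TAF3 siRNA and control siRNA (log2) in untreated cells, on the horizontal axis, and under doxorubicin, on the vertical axis, for the 12 tested TFIID probes, with standard errors as bars. Red marks the 4 probes called under doxorubicin, and TAF5 lies farthest to the upper right, at 1.51 and 0.94.

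For doxorubicin, 0 of 12 member probes were called with TAF3 siRNA by limma, against 4.79% of all probes, and 1 of 12 was called with control siRNA, against 16.8% of all probes. That probe was TAF6 ILMN_1668351, which rose (8.64% of all probes were called higher). With TAF3 siRNA 2 member probes had an unadjusted p under 0.05 (21% of all probes), TAF10 and TAF13 ILMN_2061327. Groups did not overlap for 6 of 12 probes with TAF3 siRNA (47.5% of all probes) and for 7 of 12 with control siRNA (63.3% of all probes). The 7 include TAF3 ILMN_1807176, which was tested only through its control siRNA doxorubicin arrays. The median member difference was 0.06 with TAF3 siRNA (0.01 over all probes) and -0.07 with control siRNA (-0.03 over all probes).

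The doxorubicin response did not differ between the siRNAs at the threshold for any of the 12 member probes by limma, against 0.0436% of all probes called. Of all probes 2998 (14.5%) had an unadjusted p under 0.05, and of the member probes 1 did, TAF6 ILMN_1668351. The largest positive member difference was that of TAF8 ILMN_1697175 (0.53 ± 0.28, limma adjusted p = 0.433) and the lowest that of the named TAF6 probe.

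**Figure D4:**
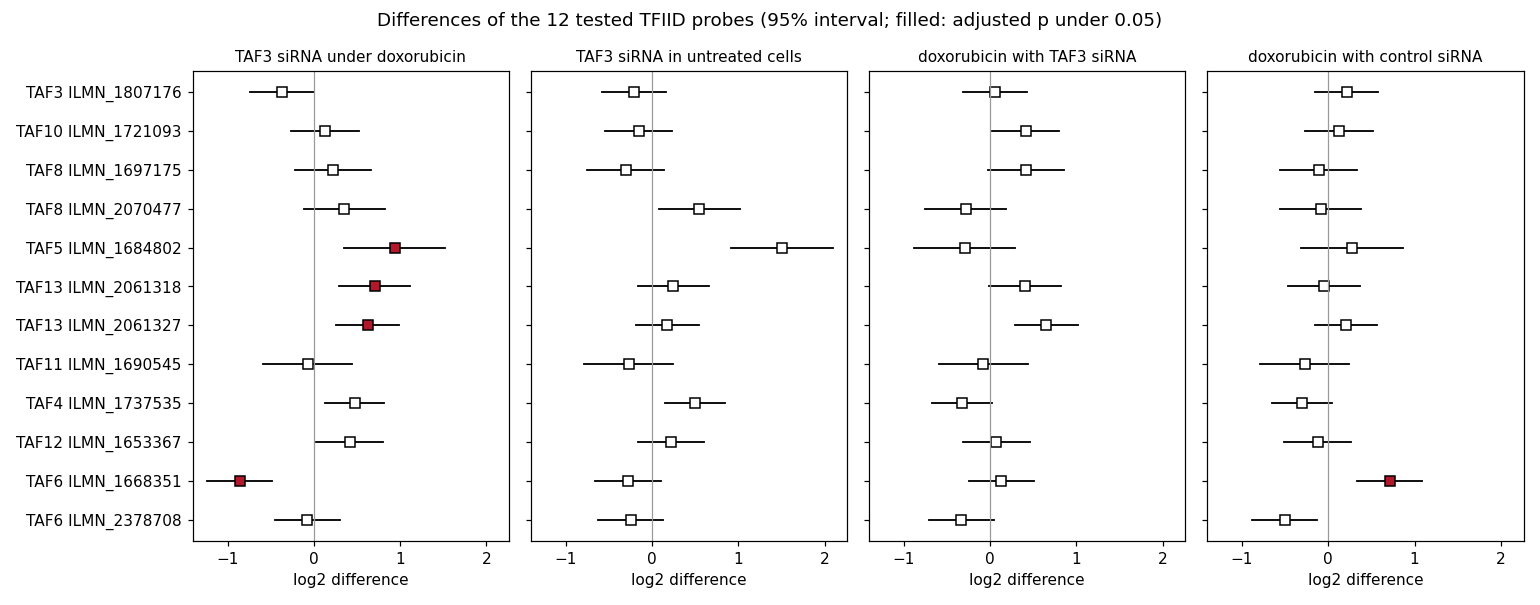
Log2 difference with 95% interval of each of the 12 tested TFIID probes in the comparisons of the design, with filled points where the adjusted p is under 0.05. Filled points are TAF5, both TAF13 probes and TAF6 ILMN_1668351 for the siRNAs under doxorubicin and TAF6 ILMN_1668351 for doxorubicin with control siRNA.

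After these values were seen, the siRNA difference was also averaged over both treatments in the same fit. By this measure 4 of 12 member probes were called, 3 higher and 1 lower, against 11.1% of all probes (5.37% higher and 5.72% lower). Higher with TAF3 siRNA were TAF5 (1.22 ± 0.18, 95% interval 0.81 to 1.64, limma adjusted p = 0.0114), TAF4 (0.49 ± 0.11, limma adjusted p = 0.0278) and TAF13 ILMN_2061318 (0.48 ± 0.13, limma adjusted p = 0.0473), and lower was TAF6 ILMN_1668351 (-0.57 ± 0.12, limma adjusted p = 0.0233). The other probes of TAF13 and TAF6 were not called: ILMN_2061327 had 0.40 ± 0.11 (limma adjusted p = 0.0536) and ILMN_2378708 -0.16 ± 0.12 (limma adjusted p = 0.417). TAF5 ranked 151 of 20628 probes by p. TAF3 ILMN_1807176 had an average of -0.29 ± 0.12 (limma adjusted p = 0.135) and TAF10 of -0.01 ± 0.12 (limma adjusted p = 0.963). On the normalized scale the 4 TAF3 siRNA arrays did not overlap the 4 control siRNA arrays for TAF5 and TAF4, which were higher (5.21% of all probes), and for TAF3 ILMN_1807176 and TAF6 ILMN_1668351, which were lower (3.79%). That TAF3 probe passed the filter only through its control siRNA doxorubicin arrays, so its place among them is no support. On the deposited signal TAF6 overlapped and TAF13 ILMN_2061318 did not.

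The averaged TAF5 call was lost without control siRNA doxorubicin replicate 2 (1.28) or 4 (1.16), with limma adjusted p up to 0.0747 over 16 alternatives. The calls of TAF4 (0.43 to 0.54) and of TAF6 (-0.60 to -0.49) were each lost when any 1 of 6 arrays was left out, all but TAF3 siRNA doxorubicin replicate 2 and TAF3 siRNA untreated replicate 3. TAF13 kept its call in 4 of 15 alternatives.

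**Figure D5:**
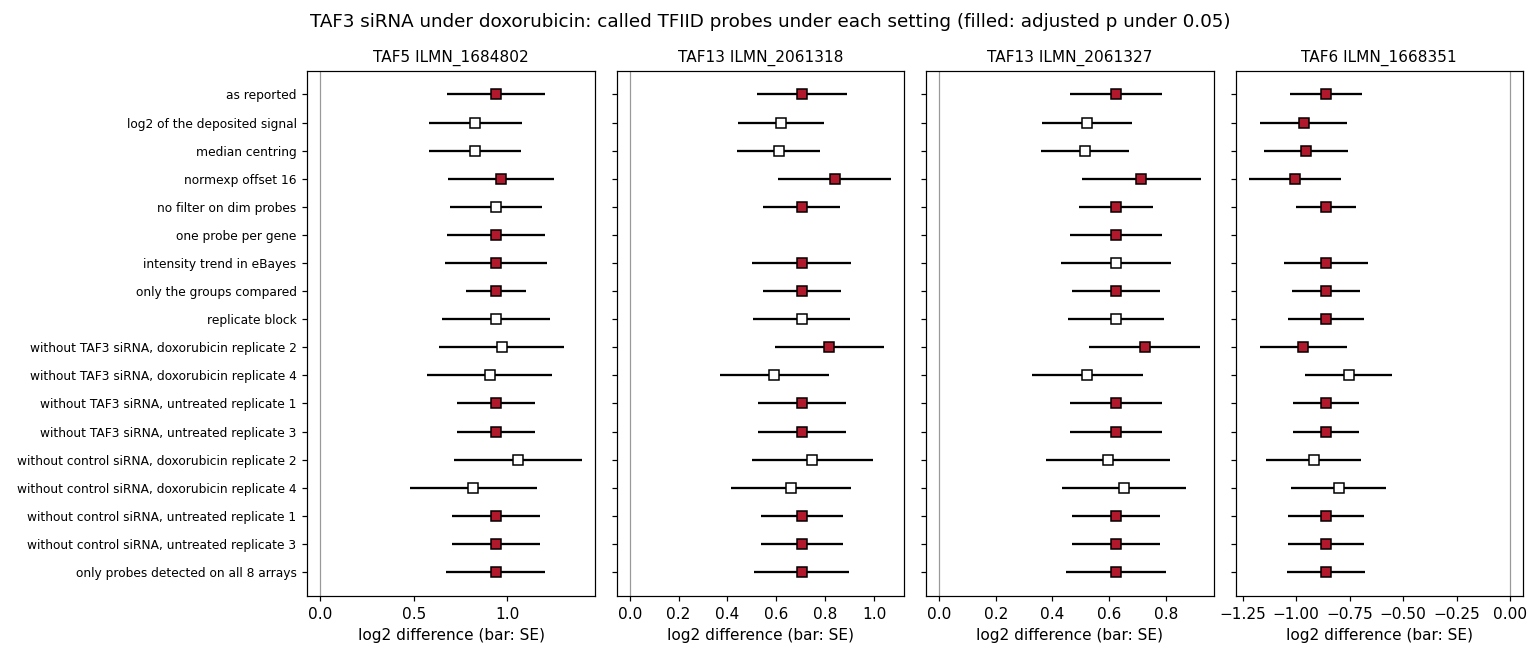
Log2 difference between TAF3 siRNA and control siRNA under doxorubicin, with its standard error, of the 4 called TFIID probes under each setting, filled where the adjusted p is under 0.05. No point crosses 0, and TAF5 is filled in 9 of 17 alternatives, TAF6 in 13 of 16.

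Over the 8 arrays the probes most like TAF5 were those of ADPGK (r = 0.98), DDX52 (r = 0.98), SF3A3 (r = 0.97) and IL17B (r = 0.97). Those most like TAF3 ILMN_1807176 were GRIPAP1 (r = 0.99), PTPRU (r = 0.98), COPE (r = 0.98) and ADRM1 (r = 0.97). These values describe 8 arrays that share 4 groups, picked as the highest of all tested probes.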

How the data were processed

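RNA of 8 arrays was read. Per the submitters' processing notes BeadStudio was used, with no version named; per the labels, 200 ng of total RNA was primed with oligo(dT) and amplified into biotin-labelled antisense RNA. The deposited intensity values are linear, share a median of 73.9 per array and are not background-subtracted (lowest signal 36.3). The authors' detection p-value columns name no sample, and their values rise with the signal, as 1 minus a p-value would, so they served only to count, for each probe, the arrays with detection and to read each array's threshold. The 8 signal columns beside them name no sample and were not used. Each threshold lay between the brightest probe detected on 0 arrays and the dimmest detected on 8, at most 0.194 apart.

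Signals were corrected with normexp (offset 50), quantile-normalized and put on the log2 scale. Means of the 4 groups were fitted to the 20628 probes detected on at least 2 arrays (42.3%) by lmFit and eBayes of limma 3.58.1 (R 4.3.3), which gave 4 residual and 5.24 prior degrees of freedom. Within each comparison p-values were adjusted by Benjamini-Hochberg over these probes. Of all probes 28098 had 1 gene symbol, 13 several and 20692 none listed. The fit was tested on simulated data that held planted log2 differences, 100 of size 1 and 100 of size 2. For TAF3 siRNA under doxorubicin it found 78 of the smaller and all 100 of the larger, beside 19 false calls. For the difference between responses it found 23 and 97, beside 10 false calls. The siRNA average had 98 and 100, beside 8 false calls. A response difference of size 1 was thus mostly missed in this simulation. Its noise was normal and independent between arrays, with the spread that the fit gave each probe. No other probe was changed and no normalization was run, so the share found in the data may differ. The number of arrays limits the precision. Every member probe is named. Other lists were given as counts with up to 4 genes of smallest p, and likeness as the 4 highest correlations. The members and lists were chosen with earlier results of these data known. Alternatives changed the scale, offset, filter, probe choice, eBayes trend, samples fitted and replicate block, or left out 1 array.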

Additional observations from a re-analysis of the deposited data

How the results depend on the processing

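Groups of 2 arrays and signals near background (TAF3, TAF8, TAF11) limit these results, and a lone array left in a group is assumed to vary like the others. With 1 array left out in turn, the member probes called numbered 0 to 4 for TAF3 siRNA under doxorubicin (4 with all arrays), 0 to 1 in untreated cells (0), 0 to 0 for doxorubicin with TAF3 siRNA (0), 0 to 1 with control siRNA (1), 0 to 0 for the difference between responses (0) and 0 to 5 for the siRNA average (4). Over all probes the ranges were 2 to 3694 (2722 with all arrays), 0 to 447 (0), 80 to 2038 (989), 383 to 4227 (3460), 0 to 395 (9) and 1 to 3737 (2287) in the same order. For TAF3 siRNA under doxorubicin, the member probes called numbered 1 on log2 of the deposited signal, 1 with median centring and 2 with one probe per gene, the brightest, which leaves out the called TAF6 probe. With one probe per gene the siRNA average had 2 and doxorubicin with control siRNA 0. Without the filter on dim probes, doxorubicin with TAF3 siRNA had 1, TAF13 ILMN_2061327. Fitting only the groups compared gave 2 member probes and 5226 probes in all for doxorubicin with control siRNA, and 88 in all with TAF3 siRNA. For the difference between responses the calls over all probes were 1 on log2 of the deposited signal, 1 with median centring, 25 without the filter, 0 with only probes detected on all 8 arrays and 107 with an intensity trend. On log2 of the deposited signal the share of calls that were higher was 63.1% for doxorubicin with control siRNA (51.5% as reported), 30.4% with TAF3 siRNA (43.6%) and 58.9% for the siRNA average (48.4%). No labels pair the replicate numbers across siRNAs, and deviations of same-numbered arrays had r = 0.21 under doxorubicin and -0.02 untreated. The doxorubicin comparisons within an siRNA could not be fitted with the replicate block, as no replicate number occurs in both treatments. With the block, 1 member probe was called for TAF3 siRNA under doxorubicin (TAF6 ILMN_1668351), among 2851 in all. For the difference between responses 2 probes in all were called with it. The cause of these shifts was not tested.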

Other observations

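Other TFIID subunits and paralogs of TAFs or the TATA-binding protein, a list of 12 genes with 13 tested probes of 11 genes, had 0 called probes by limma in each of 6 comparisons. With TAF3 siRNA under doxorubicin, where 13.2% of all probes were called, their median difference was 0.31, against 0.03 over all probes. The smallest p there was that of TAF4B, a paralog of TAF4, at 0.75 ± 0.24 (limma adjusted p = 0.0718).

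SAGA and ATAC are coactivators with acetyltransferase activity, and SAGA shares some TAFs with TFIID. Of 34 tested probes of 23 such genes, 4 were called between the siRNAs under doxorubicin, where 13.2% of all probes were called. KAT2A, the acetyltransferase of SAGA, was lower with TAF3 siRNA (-1.23 ± 0.19, limma adjusted p = 0.00777), and so was its paralog KAT2B (-0.59 ± 0.16, limma adjusted p = 0.0414). ZZZ3, an ATAC subunit, was higher on both of its probes (0.65 ± 0.17 and 0.53 ± 0.15, limma adjusted p = 0.0418 and 0.0499). The KAT2B and ZZZ3 calls were close to the threshold, and calls of this list were not examined under the alternatives. With doxorubicin 1 probe of the list was called lower in TAF3 siRNA cells, of WDR5 (-0.92 ± 0.16, limma adjusted p = 0.0176). There 2.71% of all probes were called lower and 4.79% in either direction. The other WDR5 probe was not called (-0.49 ± 0.19, limma adjusted p = 0.191). In control siRNA cells 4 were called lower and 0 higher, where 8.13% of all probes were called lower and 16.8% in either direction. The 4 were both probes of TADA1 (-0.65 ± 0.17 and -0.59 ± 0.17), YEATS2 (-0.70 ± 0.19) and 1 probe of SUPT3H (-0.68 ± 0.20). The other SUPT3H probe was not called (-0.38 ± 0.15, limma adjusted p = 0.124).

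SL1 is the selectivity factor of RNA polymerase I and holds its own TAFs. Of 7 tested probes of its 4 genes, 1 was called between the siRNAs under doxorubicin, TAF1A, higher with TAF3 siRNA (0.76 ± 0.21, limma adjusted p = 0.0471). There 6.28% of all probes were called higher and 13.2% in either direction. The TAF1A call was close to the threshold and was not examined under the alternatives. With doxorubicin in control siRNA cells TAF1A fell (-0.93 ± 0.21, limma adjusted p = 0.0199) and TAF1C rose (0.79 ± 0.20, limma adjusted p = 0.0282), where 16.8% of all probes were called.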
